A study of Mus musculus with 8 samples.

Results

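The genes described here encode the proteins of the cytoplasmic ribosome. They were taken by name: every protein-coding gene listed in both deposited tables whose symbol begins with Rpl or Rps and a digit, without the Rps6k kinases and without names that carry -ps and a number. The rule gave 80 genes, 47 of the large subunit (Rpl) and 33 of the small subunit (Rps), out of 16589 protein-coding genes and 26820 genes of any type listed in both tables. It left out 10 Rps6k kinases, 7 protein-coding names with -ps (Rpl10-ps3, Rpl13a-ps1, Rpl27-ps3, Rpl36a-ps1, Rpl9-ps1, Rpl9-ps6 and Rps12-ps3), and Rpl10l and Rpl39l, which the ileum table alone lists at totals of 3 counts each. It kept a few names that are not core subunits, such as Rps19bp1, which encodes a binding partner of RPS19.

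The series measured polyadenylated and other RNA left after ribosomal RNA depletion in intestinal epithelial cells freed with EDTA from the colon and the ileum of 8-week-old mice. WT mice were Ddx5 +/+ and DDX5KO mice were Ddx5 fl/fl, and both carried Vil1Cre, a Cre recombinase driven by the villin promoter and active in intestinal epithelium, so the controls carry the Cre as well. Each of the 4 groups (WT colon, DDX5KO colon, WT ileum, DDX5KO ileum) holds 2 libraries from 2 mice. Colon and ileum libraries of a genotype were taken as coming from the same mice, paired through the study's sample names. DDX5 is a DEAD-box RNA helicase.

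The libraries held 11571061 to 22984283 counts. Ddx5, the targeted gene, stood at 852 and 785 CPM (counts scaled to a common library size, with TMM factors from that tissue) in WT colon against 404 and 390 CPM in DDX5KO colon, and at 633 and 635 CPM in WT ileum against 308 and 296 CPM in DDX5KO ileum, so every DDX5KO library was below every WT library. The epithelial markers Epcam, Vil1, Cdh1, Krt8, Krt18, Krt19 and Cdx2 were at 1716 counts or more in each library, while among genes of other cell types the endothelial Cdh5 was at 0 to 2 counts, the endothelial Pecam1 at 6 to 55, the fibroblast collagen Col3a1 at 9 to 146 and the leukocyte antigen Ptprc at 98 to 1001. The second DDX5KO ileum library stood apart, where Gm10800, Gm10801 and Gm21738, 3 genes with repeat-like sequence, held 19.5% of the counts, compared with 0.000956% to 4.04% elsewhere. Some of the counts, medians and named members' values that rest on it are also given without it, and others are not.

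A ribosome joins a small subunit, which reads the mRNA, and a large subunit, which forms peptide bonds. Their proteins are needed in near equal numbers, and their mRNAs are among the most abundant in dividing and secreting cells. Most of these mRNAs begin with a 5′ terminal oligopyrimidine tract (TOP), a C followed by a run of C and T, through which the mTOR kinase and the RNA-binding protein LARP1 set their translation. Many of the genes also carry small nucleolar RNAs (snoRNAs), which guide chemical changes of ribosomal RNA, in their introns. In the intestine, ribosome production is highest in crypt cells and falls as cells move to the surface.

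The TOP is the shared sequence of these genes. The following runs show it, with the pyrimidine run in capitals and the coding strand written 5′ to 3′. The first 4 are the first 30 bases of the principal GENCODE transcript (vM21, GRCm38). The last 3 are 30 bases around the RefSeq start (GRCm38.p6) and show runs that lie at or near the annotated start.
Rpl37 (chr15:5116645-5116674, plus strand): CTCTTCCggtctctttggcctcgccggtag
Rpl4 (chr9:64173375-64173404, plus strand): CTTTTCCTgtgggagcagccgggtagagag
Rpl32 (chr6:115808718-115808747, minus strand): CTTCCTTCTTCCTCggcgctgcctacgagg
Rps24 (chr14:24490718-24490747, plus strand): CTCTTTTCCTCCTCTCCagctccggcgccg
Rpl14 (chr9:120571502-120571531, plus strand): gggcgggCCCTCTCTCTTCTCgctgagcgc
Rpl15 (chr14:18270972-18271001, minus strand): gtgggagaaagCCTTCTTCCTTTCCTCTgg
Rpl13a (chr7:45128731-45128760, minus strand): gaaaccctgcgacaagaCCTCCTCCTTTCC

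A C and 4 further pyrimidines opened the principal transcript of 12 of the 80 members (15%), against 486 of 21866 protein-coding genes (2.22%). In some members, such as Rpl13a, a run lies some bases from the annotated start, and where transcription starts was not measured here. A wider search took a C and 7 pyrimidines on the coding strand within 40 bases of the RefSeq start. Of 73 promoter windows of 61 members, 47 held such a run (64.4%), against 7632 of 32851 windows over all genes (23.2%). Searched on both strands of 300 bases, CCGGAAG, the core bound by ETS family factors, was in 32.9% of the members' windows and 8.86% of all windows. AAGATGGC, a core bound by YY1, was in 11% against 2.75%. TATAAA, the TATA box, was in 8.22% against 13.6%, and CACGTG, the E box bound by MYC, in 11% against 7.15%. These are matches of letters, with no measure of binding. At least 1 snoRNA gene lay inside 28 members (35%), 54 snoRNA genes in all, against 259 of 21951 protein-coding genes (1.18%).

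The members took 2.99% and 2.71% of the counts on protein-coding genes in the WT colon libraries (mean 2.85% ± 0.197, SD, n = 2). They took 3.02% and 2.60% in DDX5KO colon (2.81% ± 0.298, n = 2), 2.07% and 1.84% in WT ileum (1.96% ± 0.164, n = 2), and 2.01% and 1.57% in DDX5KO ileum (1.79% ± 0.311, n = 2). The 4 colon libraries were all above the 4 ileum libraries, while WT and DDX5KO overlapped in each tissue. In such bulk samples, fewer cells of a type and less RNA per cell cannot be told apart. Without the 3 repeat-like genes in the denominator, the DDX5KO ileum libraries stood at 2.02% and 2.01%. The ratio of summed small to large subunit counts was narrow, 0.744 to 0.779 over the 8 libraries, with means of 0.758 in WT colon, 0.753 in DDX5KO colon, 0.763 in WT ileum and 0.767 in DDX5KO ileum.

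**Figure D1:**
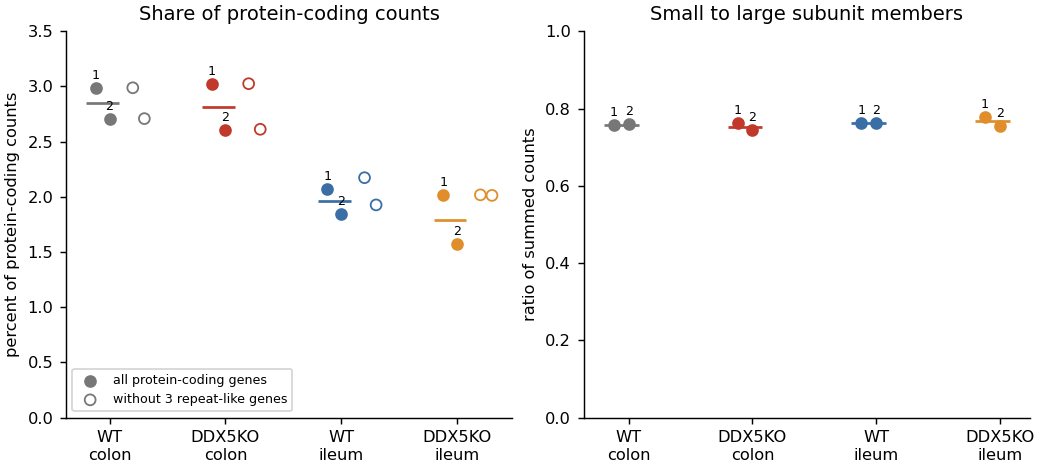
Percent of protein-coding counts on the 80 members (left) and ratio of summed small to large subunit counts (right) in each library, numbered by replicate, with bars at the mean of 2; open points leave 3 repeat-like genes out of the denominator. Colon libraries lie at 2.60% to 3.02% and ileum libraries at 1.57% to 2.07%, and the ratio stays between 0.744 and 0.779.

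Per kilobase of the principal transcript, levels in WT colon had a median of 400.3 CPM per kb, with the 10th percentile at 74.2 and the 90th at 670 (CPM after TMM over all 8 libraries). Rps12 was highest at 971, followed by Rps27 at 859, Rps29 at 858, Rpl41 at 841 and Rps28 at 723 CPM per kb. RPS27 and RPS29 are small zinc-binding proteins of the small subunit. Rpl41 encodes the smallest ribosomal protein. With the deposited gene length, which joins the exons of all transcripts, the order changed: Rpl17 was highest at 495, followed by Rps3a1 at 492, Rps29 at 483, Rpl8 at 399.5 and Rpl36 at 398 CPM per kb, and Rps12 fell to rank 21. The order among the highest thus depends on the length used. The ranks of WT colon and WT ileum were close (Spearman's rho 0.99 across 80 members on CPM, a description, since the genes share libraries).

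The lowest members had particular features in the annotation. Rpl3l, the muscle form of RPL3, was at 0 to 5 counts in every library and was not tested. Rpl24, a large subunit protein at the subunit interface, had 12 to 41 counts, Rpl36al, a paralog of Rpl36a, 12 to 49 counts, Rps10, a small subunit protein near the mRNA entry, 24 to 72 counts, and Rpl13a 126 to 422 counts. In WT colon these corresponded to 2.28 (Rpl24), 3.20 (Rpl36al), 6.63 (Rps10) and 17.4 (Rpl13a) CPM per kb of transcript. The same 4 were the members with over 50% of the principal transcript under the exons of another annotated gene on the same strand: 71.5% of Rpl24 under Gm28037, 63.1% of Rpl36al under Gm49383, 91.6% of Rps10 under RPS10-NUDT3 and 59.3% of Rpl13a mainly under Gm45713. For 75 members the transcript was free of such overlap. Reads on exons of 2 genes are left uncounted by the counting tool's default, and whether that default and which strand setting were used is not given in the sources used here. The values of these 4 are therefore uncertain as levels of the mRNA, and the part of the overlap in them was not tested.

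The other low members were without such overlap. Rps27rt, a retrogene of Rps27 with 91.1% of its 50-base words elsewhere in the transcriptome, had 25 to 107 counts. Rps19bp1 had 65 to 203 counts. Rpl7l1, an RPL7-like protein of early ribosome assembly, had 520 to 1374 counts and Rpl22l1, the paralog of Rpl22, 389 to 1291 counts. Of the 80 members, 65 had at least 1000 counts in each library. A member shared a median of 20.4% of its 50-base words with other transcripts, many of them pseudogenes (179 pseudogene rows match the names in the colon table and 208 in the ileum table), and such reads are left out where they map to more than 1 place.

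**Figure D2:**
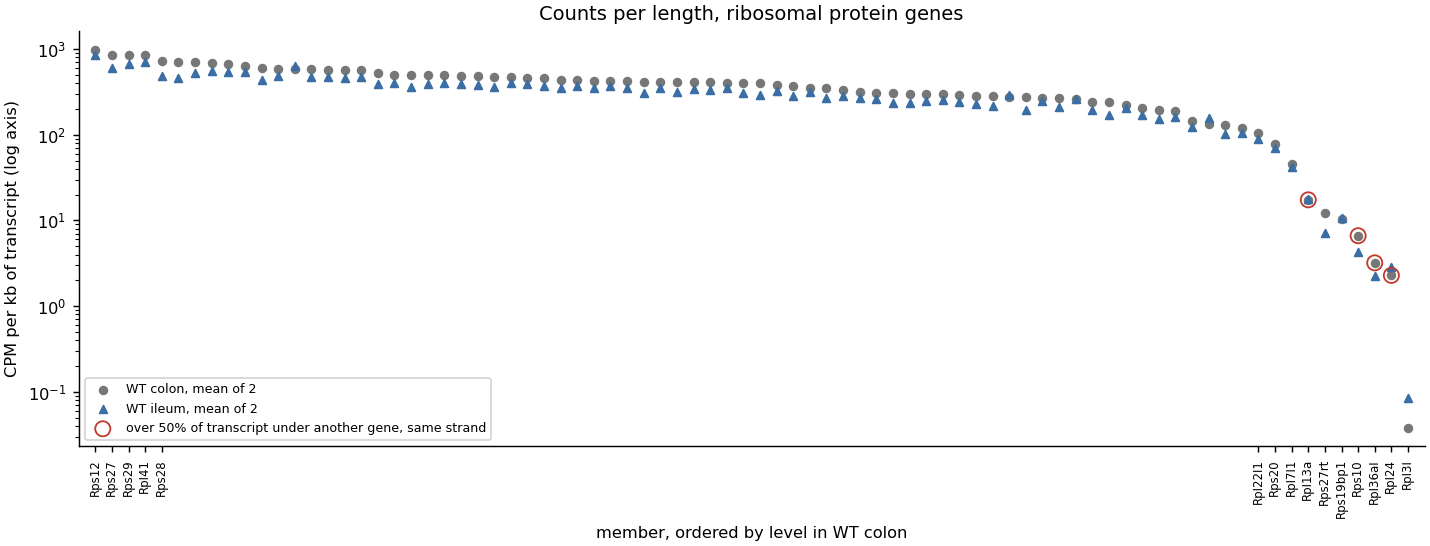
Mean CPM per kb of principal transcript (log axis) of each member in WT colon (circles) and WT ileum (triangles), ordered by WT colon, with the first 5 and last 10 named; rings mark the 4 members with over 50% of the transcript under another gene on the same strand. Most members lie between 74.2 and 670 CPM per kb in WT colon, and the 4 ringed members lie at 2.28 to 17.4.

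The members moved together between libraries of the same group. On the scale of log2(CPM + 0.5) over all 8 libraries, the replicate 1 library exceeded the replicate 2 library by a median of 0.14 over the members in WT colon, with 75 of 79 higher. The median difference was 0.21 in DDX5KO colon (76 of 79 higher), 0.21 in WT ileum (74 of 79) and 0.17 in DDX5KO ileum (69 of 79). Over all 16178 genes tested, the medians were 0.01, 0.00, 0.00 and -0.02. The libraries numbered 1 thus had more ribosomal protein mRNA per count than those numbered 2 in all 4 groups, and the members are not independent readings of a group. What the replicate number stands for is not given in the labels.

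**Figure D3:**
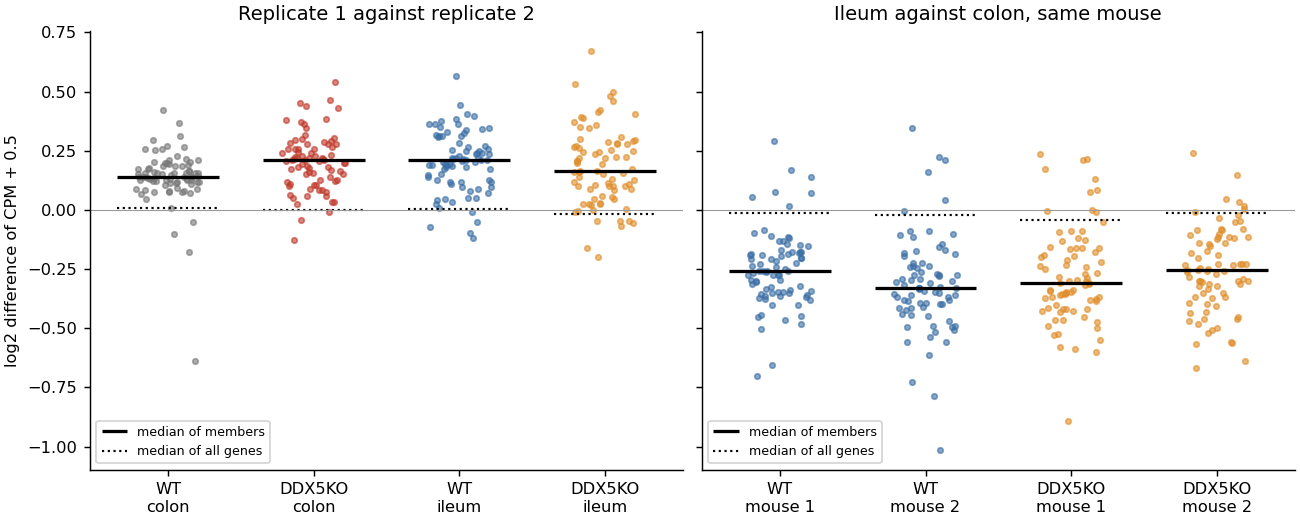
Log2 differences of CPM + 0.5 for the 79 tested members (points), between the 2 libraries of each group (left) and between ileum and colon of the same mouse, as paired here (right). Solid lines are medians over members and dotted lines medians over all genes. Most members lie above zero in the left panel (medians 0.14 to 0.21) and below it in the right panel (medians -0.33 to -0.25).

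In the colon, no ribosomal protein gene passed the criterion between DDX5KO and WT. The criterion was an unadjusted p under 0.05 with a log2 fold change of at least 0.5 (edgeR quasi-likelihood test with the replicate as a block), and 0 of 79 members met it, against 6.71% of the 15362 genes tested (3.67% lower and 3.04% higher). At an unadjusted p under 0.05 alone, 1 member was lower and 0 higher, against 6.17% and 5.78% of all genes. With Benjamini-Hochberg adjustment no gene of any kind had an adjusted p under 0.05 in the colon. The member log2 fold changes ran from -0.36 to 0.36 with a median of -0.03 (0.00 over all genes) and a median SE of 0.09. Of the 79, 55 were negative and 24 positive, and 76 lay within 0.25 of zero. DESeq2 likewise placed 0 members past the criterion. The sign of the median turned without the first WT colon library (0.04, with 24 of 79 negative) and without the second DDX5KO colon library (0.07, with 19 of 79 negative).

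Rpl13a had the most negative value in colon, -0.36 ± 0.16 (SE), with 23.1 and 17.2 CPM in WT against 15.3 and 15.8 CPM in DDX5KO, and an unadjusted p of 0.0767 (edgeR, adjusted p = 0.46). Both DDX5KO libraries were below both WT libraries, and the overlap with Gm45713 makes the level uncertain. Without the second WT colon library the value was -0.58 with an unadjusted p of 0.0249 (edgeR), past the criterion. Rpl12, a protein of the stalk base, was at 457 and 384 CPM in WT and 385 and 321 CPM in DDX5KO, a log2 fold change of -0.25 ± 0.08 (edgeR unadjusted p = 0.0306, adjusted p = 0.369). Its WT and DDX5KO libraries overlapped, and at each replicate number the DDX5KO library was lower. Without the replicate block the edgeR unadjusted p of Rpl12 was 0.119. DESeq2 gave an unadjusted p of 0.0735 with the block and 0.0991 without it. Rps20, a small subunit head protein, was at 347 and 289 CPM in WT and 289 and 260 CPM in DDX5KO (-0.21 ± 0.09). At the other end, Rpl24 was at 1.57 and 1.86 CPM in WT and 2.49 and 1.95 CPM in DDX5KO (0.36 ± 0.31), Rps21 at 197 and 181 against 225 and 194 CPM (0.15 ± 0.08), and Rpl18 at 368 and 333 against 396 and 374 CPM (0.14 ± 0.08). None of these 4 passed the criterion, and the SE of Rpl24 was near the size of its value. With 1 colon library left out, Rpl12 ran from -0.39 (without the first DDX5KO library) to -0.12 (without the first WT library), and was -0.13 without the second DDX5KO library. Rps20 ran from -0.34 (without the second WT library) to -0.08 (without the first WT library). Rps21 ran from 0.04 to 0.25 (without the first and the second DDX5KO library), Rpl24 from 0.18 to 0.53 (without the same libraries), and Rpl18 from 0.06 to 0.21 (without the second and the first WT library).

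Both DDX5KO colon libraries lay below both WT colon libraries for 6 of the 79 members, against 22% of all genes, and above them for 2, against 22.5%. The sum over the members in CPM (TMM over all 8 libraries) was 23514 and 21155 in WT colon and 23519 and 20348 in DDX5KO colon. T cell markers moved between these libraries: 7 of 7 tested markers were negative and 5 met the criterion, against 3.67% of all genes lower. Their summed level was 52.4 and 38.8 CPM in WT against 8.61 and 21.2 CPM in DDX5KO. Of 11 tested markers of differentiated enterocytes, 10 were positive and 3 met the criterion, against 3.04% of all genes higher. Their summed level was 4259 and 4464 CPM in WT against 5092 and 5794 CPM in DDX5KO. By the criterion, 1 of 7 epithelial markers was lower and 1 of 2 tested B and plasma cell markers higher. Of 5 tested stromal and vessel markers 1 was lower and 1 higher, and of 15 markers of dividing crypt cells 0 passed. In ileum the 8 T cell markers split into 4 negative and 4 positive, and 0 met the criterion. The part of these lists in the members' values was not tested.

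In the ileum, 1 of 79 members passed the criterion between DDX5KO and WT, against 7.35% of the 14068 genes tested (3.48% lower and 3.87% higher). It was Rpl13a, which was lower. At an unadjusted p under 0.05 alone, Rpl13a was again the single lower member and 0 were higher, against 6.26% and 6.08% of all genes. No member had an adjusted p under 0.05, against 0.697% of all genes. The member log2 fold changes ran from -0.50 to 0.44, with a median of -0.01 (-0.01 over all genes) and a median SE of 0.15. They split into 44 negative and 35 positive values, and 75 of 79 lay within 0.25 of zero. Without the second DDX5KO ileum library the median was 0.09, with 16 of 79 negative, and the sign of the median also turned without the first WT ileum library (0.10, with 14 of 79 negative).

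**Figure D4:**
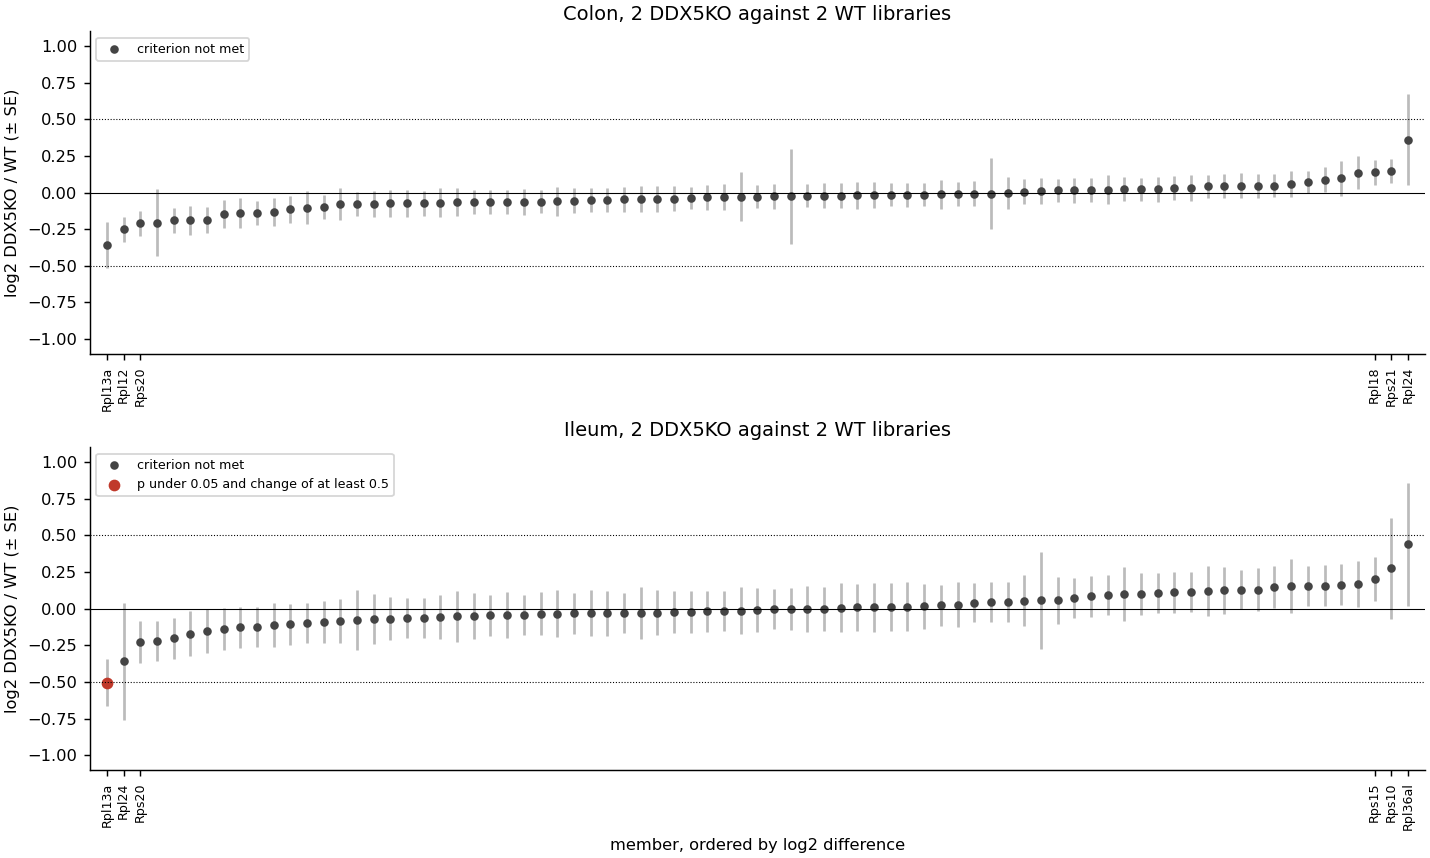
Log2 ratio of DDX5KO to WT with its SE for the 79 tested members in colon (top) and ileum (bottom), ordered by value, with the 3 at each end named; dotted lines mark 0.5 either way and red marks a member past the criterion. Colon members lie between -0.36 and 0.36, and Rpl13a at -0.50 is the single red point, in the ileum.

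Rpl13a, whose protein is a large subunit component also known as part of the interferon-activated GAIT complex, was at 17.6 and 16.5 CPM in WT ileum and 11.8 and 12.2 CPM in DDX5KO ileum. Its groups did not overlap, and the log2 fold change was -0.50 ± 0.16 (edgeR unadjusted p = 0.0101, adjusted p = 0.23). DESeq2 gave -0.52 with an unadjusted p of 0.12 with the replicate block and 0.0672 without it, so the call was lost under that tool. It was also lost with RLE scaling (-0.498) and without the 3 repeat-like genes (-0.497), where the value fell just short of 0.5. Without the first WT ileum library the value was -0.46 and without the first DDX5KO ileum library -0.48, both short of the criterion, while without the second DDX5KO ileum library it was -0.52 and past it. The readings rest on 126 to 422 counts per library, with the overlap with Gm45713 described above, and 4 snoRNA genes lie inside the gene (chr7:45125558-45128761, minus strand, GRCm38).

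Rpl24 was next lowest in the ileum at 1.67 and 1.83 CPM in WT and 1.53 and 1.17 CPM in DDX5KO (-0.36 ± 0.40), followed by Rps20 at 257 and 208 against 213 and 182 CPM (-0.23 ± 0.15). The highest was Rpl36al at 1.17 and 0.944 CPM in WT and 1.70 and 1.17 CPM in DDX5KO (0.44 ± 0.42). Rps10 stood at 2.00 and 1.89 against 2.38 and 2.33 CPM (0.27 ± 0.35), and Rps15 at 196 and 154 against 199 and 200 CPM (0.20 ± 0.15). None of these passed the criterion. The 3 with the largest SE, Rpl24, Rpl36al and Rps10, had under 100 counts in each ileum library, as had Rps27rt. With 1 ileum library left out, Rpl24 ran from -0.58 (without the first DDX5KO library) to -0.18 (without the second), and Rpl36al from 0.12 to 0.67 (without the same libraries). Rps20 ran from -0.38 (without the second WT library) to -0.07 (without the first), and was -0.35 without the first and -0.12 without the second DDX5KO library. Rps15 ran from 0.03 to 0.37 (without the second and the first WT library) and Rps10 from 0.23 to 0.32. Both DDX5KO ileum libraries were below both WT libraries for 4 of 79 members, against 20.5% of all genes, and above them for 9, against 19%.

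Some ribosomal proteins lie outside the name rule. Rplp0, Rplp1 and Rplp2 are the acidic stalk proteins, Rpsa is a small subunit protein also known as a laminin receptor precursor, Fau carries RPS30, and Rack1 is a signalling scaffold on the small subunit. In colon the log2 fold changes of these 6 ran from -0.08 (Rpsa) to 0.10 (Fau), and in ileum from 0.09 (Rack1) to 0.22 (Rplp1). None of the 6 met the criterion in either tissue, against 6.71% of all genes in colon and 7.35% in ileum. Rplp0, the most counted of them, was at 854 and 703 CPM in WT ileum and 947 and 770 CPM in DDX5KO ileum, which overlap.

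Among the 13 members with a known role beyond the ribosome, 0 met the criterion in colon and 1, Rpl13a, in ileum. Over all genes the shares were 6.71% and 7.35%, and 13 genes are too few to tell the counts from them. Rpl5, Rpl11, Rpl23 and Rpl26 bind or act on the p53 regulator MDM2 or on p53 mRNA. In colon their values were -0.07 (Rpl5), 0.03 (Rpl11), 0.01 (Rpl23) and -0.07 (Rpl26), and in ileum -0.04, 0.11, 0.01 and -0.09. Rps6, the target of the S6 kinases, was at -0.06 in colon and 0.08 in ileum. Rps27a, which encodes ubiquitin fused to RPS27A, was at -0.15 and -0.11, and Rps3, a protein with DNA repair activity, at -0.03 and 0.01. Rps14 and Rps19, the genes altered in forms of inherited or acquired anaemia, were at -0.01 and 0.09 in colon and -0.03 and -0.02 in ileum. Rpl10a was at 0.01 and 0.07, and Rpl22, which has a role in T cell development, at 0.05 and 0.04. All values but that of Rpl13a lay within 0.25 of zero.

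The study's eCLIPseq, which maps sites where DDX5 touches RNA, gave a list of genes in the small intestine that included Rpl3, Rpl4, Rpl5 and Rpl13a. The list came from a separate assay on WT mice and gives binding, not a direction of change. In ileum, Rpl3 was at 488 and 429.5 CPM in WT and 442 and 441 CPM in DDX5KO (-0.05 ± 0.17), and Rpl4 at 606 and 504 against 591 and 592 CPM (0.10 ± 0.19). WT and DDX5KO overlapped for both. In colon, Rpl3 was at 715 and 644 CPM in WT and 617 and 573 CPM in DDX5KO (-0.19 ± 0.09), without overlap and short of the criterion, and Rpl4 at -0.07.

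Among the like genes and paralogs, 0 of 7 tested met the criterion in either tissue, against 6.71% of all genes in colon and 7.35% in ileum. So few genes cannot tell 0 from those shares. Rps27l, a paralog of Rps27 known as a p53 target, was at 75.7 and 71.5 CPM in WT colon and 92.0 and 70.9 CPM in DDX5KO colon (0.13 ± 0.11), and at -0.03 ± 0.16 in ileum. Rpl22l1 was at 64.8 and 63.2 against 59.6 and 52.8 CPM in colon (-0.19 ± 0.10) and at 43.8 and 46.1 against 39.4 and 37.8 CPM in ileum (-0.22 ± 0.14), so both DDX5KO libraries were below both WT libraries in each tissue. Rpl7l1 was at 0.00 in colon and 0.16 in ileum. Rps27rt was at -0.21 ± 0.23 and 0.06 ± 0.33, and Rps19bp1 at -0.03 and -0.08.

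The difference of the genotype effect between ileum and colon was tested over all 8 libraries. No member had an adjusted p under 0.05 (edgeR), against 0.0124% of the 16178 genes tested, and 0 had an unadjusted p under 0.05, against 4.67%. DESeq2 likewise gave 0. The values had a median of 0.00, from -0.74 to 0.48, with 38 negative and 41 positive. The smallest p belonged to Rpl24 (-0.74 ± 0.43, edgeR unadjusted p = 0.119), then Rpl36a (0.18 ± 0.16) and Rpl31 (-0.20 ± 0.21). Leaving out 1 library moved the median to between -0.08 and 0.13. The negative members numbered 8 of 79 without the second DDX5KO ileum library and 63 of 79 without the second WT ileum library. Rpl24 ran from -0.96 to -0.53 and Rpl36a from 0.09 (without the second WT ileum library) to 0.28 (without the first), and without the second DDX5KO ileum library Rpl24 was at -0.53 and Rpl31 at -0.08.

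Between the tissues, ribosomal protein genes were lower in ileum than in colon in each of the 4 mice, as paired here. On log2(CPM + 0.5), the median over 79 members was -0.26 in WT mouse 1, -0.33 in WT mouse 2, -0.31 in DDX5KO mouse 1 and -0.25 in DDX5KO mouse 2, against -0.01, -0.02, -0.04 and -0.01 over all genes. In all 4 mice together, 66 of 79 members were lower in ileum, against 32.8% of all genes, and 2, Rps2 and Rps27l, were higher, against 30.4%. Both WT ileum libraries lay below both WT colon libraries for 64 members, against 37.5% of all genes, and above them for 3, against 35.3%. The tissue difference was thus larger than the 0.14 to 0.21 between the libraries of a group, but of the same order.

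In the fit over all libraries, few single genes passed. In WT, 6 members were lower in ileum at an adjusted p under 0.05 (edgeR) and 0 higher, against 16.8% and 17.4% of the 16178 genes tested (34.2% in either direction). The 6 are 7.59% of the members. The median log2 ratio was -0.28, a ratio of 0.822, with 73 of 79 negative, against -0.02 over all genes. In DDX5KO, 10 members were lower (12.7%) and 0 higher, against 17.3% and 18% of all genes (35.3% in either direction), with a median of -0.26, a ratio of 0.836, and 74 of 79 negative. At an unadjusted p under 0.05, 24 members were lower in WT (30.4%, against 21.8% of all genes) and 25 in DDX5KO (31.6%, against 22.7%), and 0 were higher in either genotype, against 21.9% and 22.5%. The median SE of a member was 0.15, so a difference of the median size was within 2 SE.

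A block for the mouse uses the pairing of ileum and colon, taken as from the same animal. With this block, 22 members were lower in WT and 23 in DDX5KO, and 0 higher in either. These are 27.8% and 29.1% of the members, while 18.3% of all genes were lower in each genotype (37.7% and 37.8% in either direction). With the block, the medians were -0.28 and -0.26. In the filtered edgeR fit on all 8 libraries, the share of members called lower was thus below that of all genes at an adjusted p without the block. It was above that share with the block or at an unadjusted p. Without the block it was also above it in DESeq2, at 11.2% in WT (9 members, against 5.42%) and 15% in DDX5KO (12 members, against 5.37%). The same held for edgeR with no filter, at 21.2% in WT (against 7.43%) and 27.5% in DDX5KO (against 8.16%). Without the second DDX5KO ileum library, the unblocked test gave 0 lower members in DDX5KO, with a median of -0.18 and 66 of 79 negative. Without the first DDX5KO colon library it gave 0 as well, with a median of -0.14 and 72 of 79 negative. In WT, leaving out either WT colon library or the second WT ileum library gave 0 lower members, with medians of -0.22, -0.35 and -0.20.

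Rpl9, a large subunit protein near the factor-binding site, showed the largest called difference in both genotypes. It stood at 511 and 449 CPM in WT colon and 314 and 316 CPM in WT ileum (-0.61 ± 0.19, edgeR adjusted p = 0.0358). In DDX5KO it was at 623 and 428 CPM in colon and 336 and 289 CPM in ileum (-0.75 ± 0.19, adjusted p = 0.0151). Rpl37, a small zinc-binding protein of the large subunit whose TOP is shown above, was at 205 and 193 CPM in WT colon and 158 and 126 CPM in WT ileum (-0.49 ± 0.14, adjusted p = 0.0261). In DDX5KO, Rpl37 was at 215 and 198 CPM in colon and 147 and 127 CPM in ileum (-0.59 ± 0.14, adjusted p = 0.0115). For both genes every ileum library was below every colon library. With 1 library left out, Rpl9 ran from -0.70 to -0.52 in WT and from -0.999 to -0.46 in DDX5KO (without the second and the first DDX5KO colon library), and Rpl37 from -0.67 to -0.34 in WT and from -0.71 to -0.47 in DDX5KO. Without the second DDX5KO ileum library the DDX5KO values were -0.62 (Rpl9) and -0.47 (Rpl37).

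The other called members were of similar size. In WT, Rps28, a small subunit protein at the exit of the mRNA channel, was at 204 and 187 CPM in colon and 150 and 113 CPM in ileum (-0.57 ± 0.18). Rps27 was at 308 and 284 against 223 and 193 CPM (-0.51 ± 0.15), and Rpl36a at 137 and 124 against 107 and 93.9 CPM (-0.37). Rpl18 completed the 6 at -0.37. In DDX5KO, Rpl39, a short protein lining the exit tunnel, was at 185 and 134 CPM in colon and 123 and 93.1 CPM in ileum (-0.56 ± 0.18), and Rps18 at 458 and 351 against 302 and 253 CPM (-0.54 ± 0.18). Rpl31 was at 243 and 222 against 173 and 151 CPM (-0.52 ± 0.15). Without the first DDX5KO colon library these 3 were at -0.31 (Rpl39), -0.35 (Rps18) and -0.47 (Rpl31), and without the second DDX5KO ileum library at -0.35, -0.40 and -0.41. In WT, Rps28 ran from -0.80 to -0.39 with 1 library left out, Rps27 from -0.63 to -0.41 and Rpl36a from -0.48 to -0.28. The calls shared by both genotypes were Rpl9, Rpl18, Rpl37 and Rps27, and Rpl23, Rpl26 and Rps29 completed those of DDX5KO. A call in a single genotype is no sign of a difference between them, since the test of that difference gave 0 members.

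A few members did not follow. Rps2, a small subunit protein at the mRNA entry, was at 618 and 555 CPM in WT colon and 642 and 620 CPM in WT ileum (0.11 ± 0.13), and at 604 and 583 against 712 and 689 CPM in DDX5KO (0.24 ± 0.13). Rpl29 was at 165 and 157 against 185 and 157 CPM in WT (0.09) and at 0.13 in DDX5KO. Rps27l was at 0.24 in WT and 0.06 in DDX5KO, Rpl24 at 0.31 and -0.43, and Rpl13a at 0.05 and -0.09. None of these had an adjusted p under 0.05. Rps4l, listed as a processed pseudogene and so no member, was higher in ileum, at 0.83 in WT (edgeR adjusted p = 0.0112) and 0.74 in DDX5KO (adjusted p = 0.0203). Across the 79 members the ratios of WT and DDX5KO mice, which share no library, had a Spearman's rho of 0.72, and the ratio and the transcript length a rho of 0.21 in WT and 0.30 in DDX5KO. These describe genes measured in the same libraries.

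**Figure D5:**
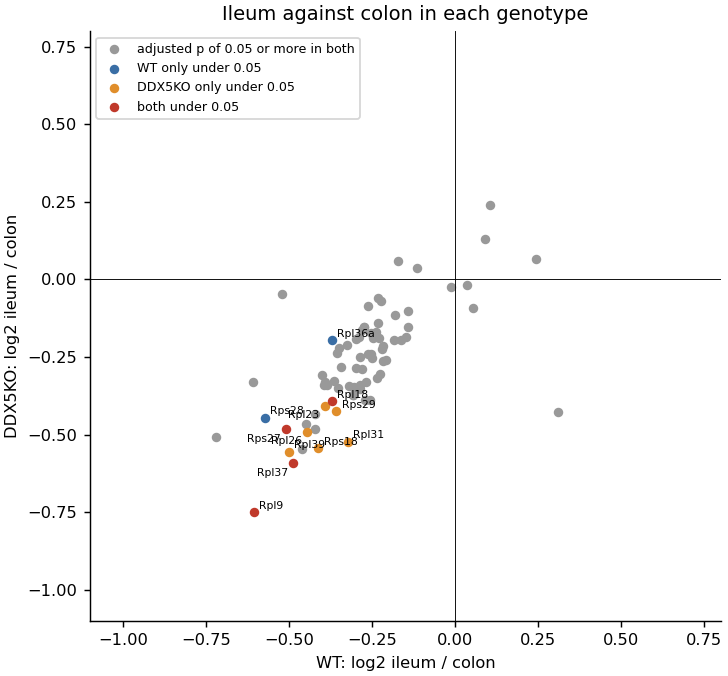
Log2 ratio of ileum to colon of each tested member in WT (x axis) and DDX5KO (y axis), coloured by an adjusted p under 0.05 in either genotype, with those members named. Most points lie below zero on both axes, around the medians of -0.28 and -0.26, with Rpl9 at -0.61 and -0.75.

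The median was below zero for both subunits. In WT, the median was -0.26 over 46 large subunit members and -0.30 over 33 small subunit members, and in DDX5KO -0.23 and -0.31. The calls, all lower in ileum, were 4 of the 46 and 2 of the 33 in WT, against 16.8% of all genes. In DDX5KO they were 7 and 3, against 17.3%. The calls of each genotype were lost when certain single libraries were left out, as given above. The difference between the subunits was not tested. Outside the name rule, Rplp0 was at -0.40 in WT and Rack1 at -0.30, while Fau stood at 216 CPM in both tissues of WT on average, and Rplp0, Rplp1, Rplp2, Rpsa, Fau and Rack1 all had an adjusted p over 0.05 in both genotypes. The TOP translation factors, genes such as Eef1a1 and Eef2 that share the TOP with ribosomal proteins, had a median of -0.16 in WT, with 14 of 18 negative and 1 lower and 1 higher at an adjusted p under 0.05.

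The following lists are of genes that work beside the ribosome, to be read against 16.8% of all genes lower and 17.4% higher in WT ileum at an adjusted p under 0.05. Of 62 ribosome assembly factors, 8 were lower in WT ileum and 1 higher, with a median of -0.16. Of 77 mitochondrial ribosomal proteins, 8 were lower and 2 higher, with a median of -0.04. Of 38 tested proteasome subunits, 1 was lower and 7 higher, with a median of 0.23. Among 23 genes of mTOR, LARP1 and MYC control, 0 were lower and 4 higher, with a median of 0.11. In the genotype comparisons the medians of the 18 TOP factors were -0.06 in colon and 0.06 in ileum, and of the assembly factors 0.04 and 0.07. Those of the mitochondrial ribosomal proteins were 0.07 and 0.07, of the proteasome -0.00 and -0.01, and of the control genes 0.02 and 0.01. At most 2 genes of a list passed the criterion in 1 direction. Over all genes, 3.67% were lower and 3.04% higher by the criterion in colon, and 3.48% and 3.87% in ileum.

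Marker genes also differed between the tissues. The 15 markers of dividing crypt cells had a median of 0.26 in WT (13 positive, 4 higher at an adjusted p under 0.05), with a summed level of 839 and 928 CPM in WT colon against 1846 and 1788 CPM in WT ileum. Most of that rise in the sum was Olfm4, a crypt base gene, at 0.525 and 0.484 CPM in WT colon and 674 and 681 CPM in WT ileum. Of the 14 markers of differentiated enterocytes, 11 were higher and 3 lower (edgeR, adjusted p under 0.05), with a median of 2.93. Their log2 ratios ran from -9.57 to 12.96. Their summed level was 4259 and 4464 CPM in WT colon against 14819 and 17003 CPM in WT ileum. Neither the median nor the sum measures the share of differentiated cells. The T cell markers summed to 52.4 and 38.8 CPM in WT colon and 113 and 96.7 CPM in WT ileum, and the stromal and vessel markers to 10.6 and 15.01 against 4.11 and 2.84 CPM. The epithelial markers summed to 10611 and 10355 against 13864 and 13405 CPM. Over the 8 libraries, mitochondrial RNAs took 5.06% to 8.08% of the counts. The part of these differences in the lower level of ribosomal protein genes was not tested.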

How the data were processed

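Ribosome-depleted RNA of epithelial cells from 8 libraries (colon and ileum of what were taken as 4 mice) was sequenced. Per the labels and the methods, the authors aligned paired reads to mm10 with STAR 2.6.1a, counted uniquely mapped reads over GENCODE exons with featureCounts and deposited raw counts, gene length and, from DESeq2 1.18.1, a normalized signal, a log2 fold change with its error, a Wald score and p-values; these DESeq2 columns were not used. The counting's strand setting is not given in the sources used here. Names with -ps and a number were read as the rule's -ps names.

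Raw counts were fitted over all genes with the edgeR 4.0.16 quasi-likelihood test (filterByExpr, minimum count 10, TMM, Benjamini-Hochberg adjustment): genotype within each tissue with the replicate number as a block, and tissue and interaction over 8 libraries. The replicate number stands in for the study's harvest covariate, whose values per library are not given in the sources used here. Deviations of same-numbered libraries correlated at 0.0261 in colon and 0.274 in ileum, and those of colon and ileum of the same mouse, paired through the study's sample names, at 0.181 (WT) and 0.21 (DDX5KO). Transcripts came from GENCODE vM21 and start windows from RefSeq. A gene listed in 1 table was set to 0 in the other. The fits were also run on simulated counts, drawn gene by gene with known changes larger than the members' medians. That run does not cover the shared shifts of the members.

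The members and lists were chosen with earlier results of these data known. Named members were those past the criterion or the 3 most extreme each way in genotype comparisons, the 5 largest called ratios between tissues, the 5 highest and lowest per length, the listed genes, and the 3 smallest interaction p; members outside the rule that are named (Rps2, Rpl29, Rpl14, Rpl15, Rpl32, Rps24) were chosen after their values were seen. Alternatives were other scalings, filters, DESeq2 1.42.0, blocks and leaving out each library. A few genes of these lists are not reported here.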

Additional observations from a re-analysis of the deposited data

How the results depend on the processing

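With 2 mice a group, the median SE of a member on the log2 scale was about 0.09 in colon and 0.15 in ileum, both with the replicate block. It was about 0.15 in the tissue comparisons, fitted without a block. The block takes differences shared by same-numbered libraries out of the SE. Counts limit Rpl24, Rpl36al, Rps10 and Rps27rt further.

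Of the genotype results, the count of members past the criterion was 0 in colon under every alternative but leaving out libraries (0 to 1, with Rpl13a called without the second WT colon library). In ileum the single call of Rpl13a became 0 with DESeq2 with the replicate block, DESeq2 without it, RLE scaling, without the 3 repeat-like genes, and over the members with at least 1000 counts in each library, a set chosen after seeing the data. It ranged from 0 to 1 with a library left out. The edgeR fit with the replicate block and the edgeR fit without it both gave 0 members in colon and 1 in ileum. In all genes, DESeq2 with the replicate block placed 530 genes past the criterion in colon and 353 in ileum, against 1031 and 1034.

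Of the tissue results, members lower in ileum numbered 17 (WT) and 22 (DDX5KO) with no filter, and 22 and 23 with the mouse as replicate block, against 6 and 10. Over all genes, 7.43% and 8.16% were lower with no filter and 18.3% with the block, against 16.8% and 17.3%. In DDX5KO they numbered 3 with RLE scaling and 6 without the 3 repeat-like genes (added after seeing the data). With a library left out they ranged from 0 to 13 in WT and from 0 to 19 in DDX5KO. The cause was not tested. The medians moved by less than the spread between libraries (0.142) in each alternative, and no alternative gave a member higher in ileum or past the threshold of the interaction. The interaction of Rpl31 (-0.20) ranged from -0.375 to 0.00864 with a library left out, where its sign turned without the first WT ileum library.

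The mean share of counts was 2.47% in WT colon, 2.41% in DDX5KO colon and 1.75% in WT ileum with all gene types as the denominator, and 2.47% and 2.41% in colon without the 3 repeat-like genes. With 1 library left out, the share of counts on protein-coding genes ranged from 2.71% to 2.99% in WT colon and 2.60% to 3.02% in DDX5KO colon. It ranged from 1.84% to 2.07% in WT ileum and 1.57% to 2.01% in DDX5KO ileum. These ends are the values of the single libraries.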
